A study of Saccharomyces cerevisiae with 6 samples.

Results

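Transcript levels of 10 genes of zinc uptake, zinc storage and zinc-dependent control were examined in Saccharomyces cerevisiae cultures grown with and without BSA. The genes were chosen by their ORF names and their known roles in zinc homeostasis, with earlier results of these data known. They are ZAP1 (YJL056C), ZRT1 (YGL255W), ZRT2 (YLR130C), ZRT3 (YKL175W), ZRC1 (YMR243C), COT1 (YOR316C), ZRG17 (YNR039C), IZH1 (YDR492W), IZH2 (YOL002C) and ZPS1 (YOL154W). All 10 were measured among the 5657 genes of the array, each by 1 probe set (a group of short probes that reads 1 transcript), and 0 of these probe sets are of a type that marks signal shared with other genes.

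Of the wild-type strain CEN. PK 113-7D, 3 cultures had BSA added and 3 control cultures had none. BSA usually means bovine serum albumin, but the labels give only the abbreviation. All cultures were grown aerobically in baffled shake flasks at 30 °C and gave 1 Affymetrix array each, called biological replicates by the labels. The protocol places sampling at 48 h, while the design text speaks of an early glucose phase, so the growth phase is not settled, and neither the amount of BSA nor the zinc content of the medium is given in the sources used here. No gene on the array reports the presence of BSA, so the labels of the 2 groups could not be checked against a target gene. Of markers for mating type, 3 of 4 alpha-cell genes and 0 of 6 a-cell genes lay below the first quartile of every array, which is the pattern of the a mating type that this strain is known for. The a-cell gene BAR1 and the alpha-cell gene SAG1 each lay below it on 3 arrays, those with BSA.

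Yeast cells hold their zinc supply steady through the activator Zap1, which binds zinc-responsive elements in promoters when the cell runs short of zinc and loses activity when zinc is plentiful. Its targets include transporters that bring zinc into the cell or release it from the vacuole, and Zap1 also activates its own gene. Excess zinc is stored in the vacuole by transporters of the cation diffusion facilitator family, and further members of that family supply the endoplasmic reticulum (ER).

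Values are log2 expression values, so a difference of 1 is a 2-fold change, and a level can be compared between arrays for 1 gene but not between genes. A gene was called higher or lower at an adjusted p under 0.05 in limma, a linear model fitted across all genes with Benjamini-Hochberg adjustment. The array medians lay between 7.55 and 7.62. Over all genes the log2 fold changes had a median of -0.13, and changes relative to that median are given for some of the genes. Replicates 2 and 3 without BSA were the closest pair of arrays (SD over genes of their difference 0.0567), whereas the other pairs inside a group had SDs of 0.117 to 0.198. Replicate 1 without BSA stood apart from the other 2 for several of the zinc genes, and results that rest on it are therefore given with and without it. Fits without it keep only 2 arrays without BSA, that closest pair. Their SE and limma p rest partly on how near those 2 arrays lie, and may understate the spread between cultures.

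With BSA, 6 of the 10 genes were called higher, 1 was called lower and 3 were not called. The storage transporter genes ZRC1 and COT1, the membrane protein genes IZH1 and IZH2, the cell surface protein gene ZPS1 and the activator gene ZAP1 rose, and ZRG17, whose product supplies zinc to the ER, fell. The uptake genes ZRT1 and ZRT2 and the vacuolar release gene ZRT3 were not called, and their values without BSA spread widely. Among all genes 75.4% were called, 28.3% higher and 47.1% lower, a share close to the 7 of 10 found here. The median log2 fold change of the 10 genes was 0.62, against -0.13 over all genes tested. Values of the groups did not overlap in 6 of the 10 genes, against 79.5% of all genes. Changes of at least 2-fold upward were found in 4 of the 10 (COT1, IZH1, IZH2 and ZPS1), against 7.04% of all genes, and downward in 0 of the 10, against 1.96%. Since the 10 genes were chosen with earlier results known, these shares and medians describe them and are not a test of the set.

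**Figure D1:**
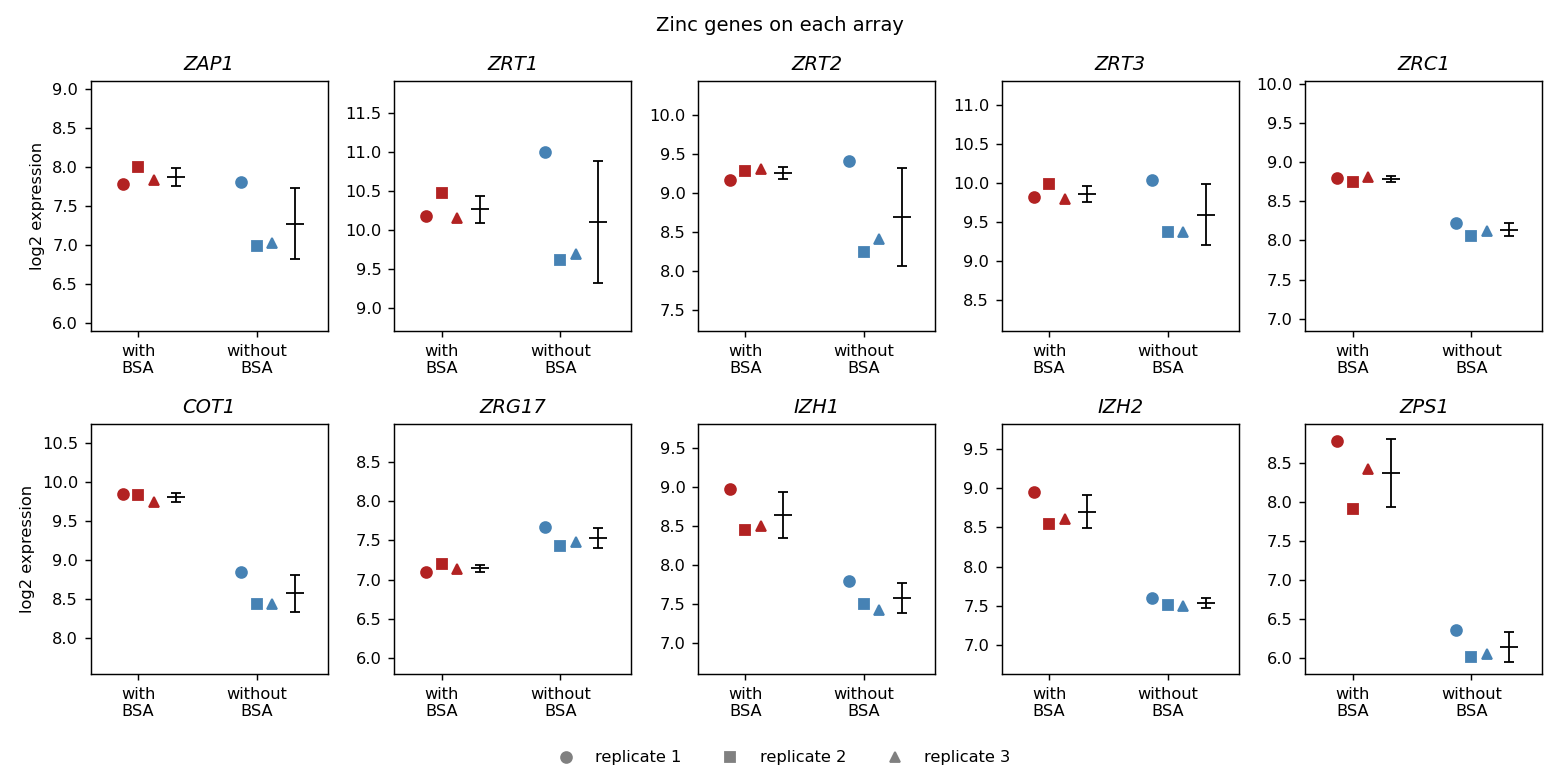
Log2 expression (y axis, same span of 3.2 log2 units in each panel) of the 10 zinc genes on each of the 6 arrays, by group (x axis), with the marker shape giving the replicate and the black bar the mean ± SD (n = 3). Values with BSA lie above all values without BSA for ZRC1, COT1, IZH1, IZH2 and ZPS1 and below them for ZRG17, while in ZAP1, ZRT1, ZRT2 and ZRT3 replicate 1 without BSA reaches into or above the values with BSA.

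ZAP1 encodes the zinc-sensing activator itself. Its log2 values were 7.78, 8.00 and 7.83 with BSA (replicates 1 to 3), against 7.80, 6.99 and 7.03 without BSA. The groups overlapped through replicate 1 without BSA, which lay among the cultures with BSA, while the other two lay well below them. The means were 7.87 ± 0.11 with BSA and 7.28 ± 0.46 without BSA (SD, n = 3 each), a log2 fold change of 0.60 ± 0.20 (SE, limma adjusted p = 0.0283). This call was lost with any single array other than replicate 1 without BSA left out (limma adjusted p = 0.0515 to 0.088). It was also lost with replicates 2 and 3 without BSA counted as 1 sample (limma adjusted p = 0.0882). With replicate 1 without BSA left out, which leaves replicates 2 and 3 of that group, the log2 fold change was 0.86 ± 0.07 (SE, limma adjusted p = 9.13e-05).

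ZRT1 encodes the high-affinity zinc importer of the plasma membrane and is the best known Zap1 target. It had log2 values of 10.18, 10.47 and 10.15 with BSA, against 11.00, 9.61 and 9.69 without BSA. Replicate 1 without BSA was the highest of all 6 arrays and replicates 2 and 3 without BSA were the lowest, so the values with BSA lay between them. The log2 fold change was 0.17 ± 0.34 (SE, limma adjusted p = 0.674), with a 95% confidence interval of -0.63 to 0.96, which leaves room for changes in either direction. Its sign turned to -0.079 and -0.040 with replicate 2 or 3 without BSA left out. Without replicate 1 of that group the log2 fold change was 0.62 ± 0.10 (SE, limma adjusted p = 0.00145), past the threshold as higher. That fit rests on replicates 2 and 3 as the only arrays without BSA.

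ZRT2 encodes the low-affinity importer, which Zap1 is known to activate under mild zinc shortage and to repress under severe shortage. The log2 values were 9.16, 9.29 and 9.30 with BSA, against 9.41, 8.25 and 8.42 without BSA. As in ZRT1, replicate 1 without BSA was the highest array and the other two of its group the lowest. The log2 fold change was 0.56 ± 0.27 (SE, limma adjusted p = 0.0962), with a 95% confidence interval of -0.08 to 1.19. It became 0.92 ± 0.07 (limma adjusted p = 6.83e-05) without replicate 1 of the cultures without BSA, which leaves replicates 2 and 3 of that group. With these counted as 1 sample and replicate 1 kept, it was 0.38 ± 0.28 (SE, limma adjusted p = 0.259).

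ZRT3 encodes the transporter that releases stored zinc from the vacuole into the cytosol. It showed log2 values of 9.82, 9.98 and 9.79 with BSA, against 10.04, 9.36 and 9.36 without BSA. Again the highest and the lowest arrays were both cultures without BSA. The log2 fold change of 0.27 ± 0.18 (SE) was not called (limma adjusted p = 0.192, 95% confidence interval -0.14 to 0.68). It was 0.50 ± 0.07 (limma adjusted p = 0.000648) without replicate 1 of the cultures without BSA, which leaves replicates 2 and 3 of that group. With these counted as 1 sample and replicate 1 kept, it was 0.16 ± 0.185 (SE, limma adjusted p = 0.464).

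**Figure D2:**
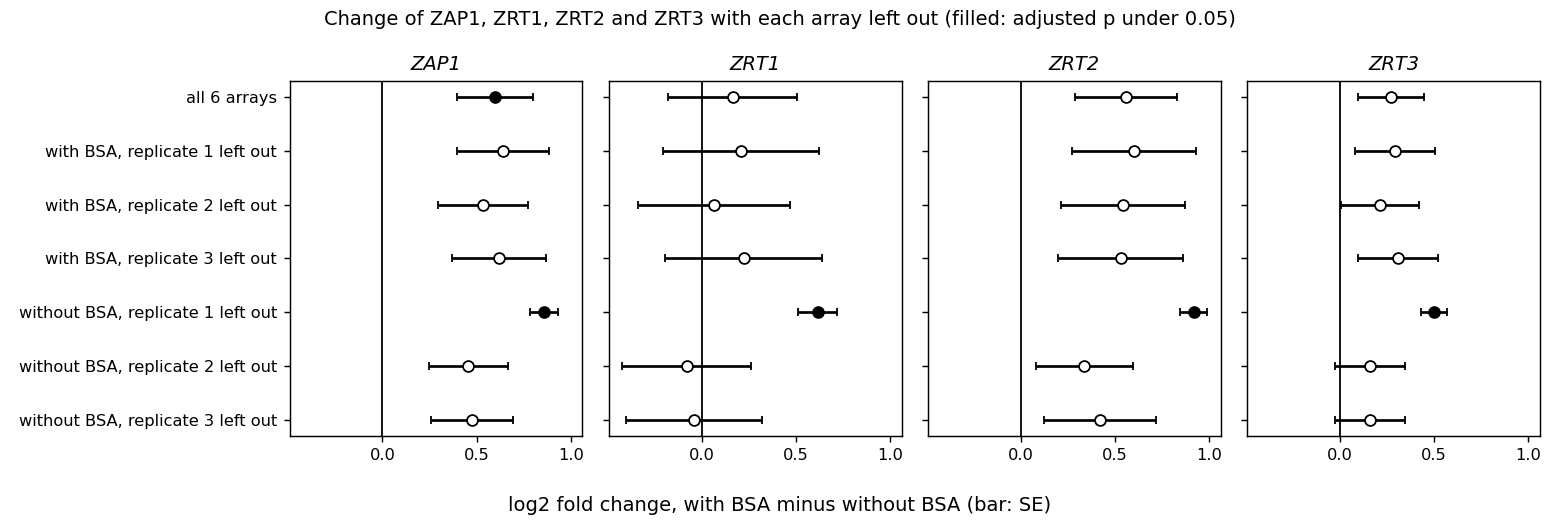
Log2 fold change with BSA minus without BSA (x axis, bar: SE) of ZAP1, ZRT1, ZRT2 and ZRT3 from the limma fit with all 6 arrays and with each array left out (rows), filled where the adjusted p was under 0.05. The change is largest and passes the threshold in all 4 genes when replicate 1 without BSA is left out, and with any other single array left out it passes in none of them.

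The genes of zinc storage in the vacuole gave a clearer difference. ZRC1 encodes the main vacuolar zinc importer, and Zap1 is known to activate it ahead of a renewed supply of zinc. Its log2 values were 8.80, 8.74 and 8.81 with BSA, against 8.23, 8.06 and 8.12 without BSA. The groups were separated by a gap of 0.52, far wider than the spread inside either group. ZRC1 rose by 0.65 ± 0.06 (log2 fold change ± SE, limma adjusted p = 4.04e-05), a 1.57-fold change. COT1, the paralog of ZRC1, carries cobalt and zinc into the vacuole and is also known as a target of the iron-sensing activator Aft1. COT1 had log2 values of 9.84, 9.83 and 9.74 with BSA, against 8.85, 8.44 and 8.44 without BSA. Every culture with BSA was above every culture without it, and COT1 rose 2.34-fold (log2 fold change 1.23 ± 0.11 SE, limma adjusted p = 4.5e-05).

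ZRG17 encodes a subunit of the zinc transporter that supplies the ER, where it pairs with the product of MSC2. The log2 values of ZRG17 were 7.10, 7.19 and 7.14 with BSA, against 7.67, 7.43 and 7.48 without BSA. All cultures with BSA were lower, by a gap of 0.24 between the nearest arrays. The log2 fold change was -0.38 ± 0.07 (SE, limma adjusted p = 0.00184), or -0.25 relative to the median of all genes. ZRG17 was the only one of the 10 genes to be called lower, and its call held under all 17 alternatives, with log2 fold changes of -0.43 to -0.21.

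IZH1 and IZH2 encode membrane proteins of the progestin and adipoQ receptor family whose loss alters zinc tolerance. IZH1 had log2 values of 8.97, 8.44 and 8.50 with BSA, against 7.80, 7.50 and 7.43 without BSA. IZH2 had log2 values of 8.95, 8.55 and 8.61 with BSA, against 7.60, 7.51 and 7.49 without BSA. In both genes replicate 1 with BSA was the highest array, and the groups did not overlap. IZH1 rose 2.09-fold (log2 fold change 1.06 ± 0.15 SE, limma adjusted p = 0.000454) and IZH2 rose 2.25-fold (1.17 ± 0.10 SE, limma adjusted p = 3.96e-05).

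ZPS1 encodes a cell surface protein with similarity to fungal zinc metalloproteins, and its transcript is known to rise in zinc-poor cells and at alkaline pH. Its log2 values were 8.77, 7.90 and 8.42 with BSA, against 6.36, 6.01 and 6.05 without BSA. The lowest culture with BSA was 1.54 above the highest without BSA, although the cultures with BSA differed among themselves more than in any other of the 10 genes (SD 0.44). ZPS1 rose 4.68-fold, a log2 fold change of 2.23 ± 0.21 (SE, limma adjusted p = 4.79e-05), which placed it at rank 56 from the top among all 5657 genes. Without BSA its signal was dim and lay below the first quartile on all 3 arrays of that group. The exact permutation test of 3 against 3 arrays cannot go below a two-sided p of 0.1, a value reached by ZRC1, COT1, IZH1, IZH2, ZPS1 and ZRG17, while ZAP1 gave an exact p of 0.2, ZRT2 and ZRT3 of 0.4 and ZRT1 of 0.8.

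The genes whose profile over the 6 arrays was nearest to that of ZPS1, the member with the largest change, were YDR248C, MSN4 and DAK2. After each gene was centred on its own mean, their root mean square differences from ZPS1 were 0.151, 0.152 and 0.165 (log2, n = 6 arrays). MSN4, which encodes an activator of general stress genes, averaged 9.09 with BSA and 6.78 without BSA. DAK2, a dihydroxyacetone kinase gene, averaged 8.03 with BSA and 5.62 without BSA. All 3 share with ZPS1 that replicate 1 was the highest and replicate 2 the lowest among the cultures with BSA. Because they were chosen for nearness on the same arrays, the choice itself favours a shared order.

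Related pairs were compared by their difference on each array, in 5 pairs chosen by role. The ranges over replicates subtract arrays of the same number, a matching the labels do not state, so they are not the spread of the estimate. The log2 fold change of ZRT1 was lower than that of ZRT2 by 0.39 (difference -0.39, -0.57 to -0.18 over replicates). COT1 exceeded ZRC1, with a difference of -0.58 for ZRC1 minus COT1 (-0.71 to -0.42 over replicates). The difference was -0.37 for ZRT3 minus ZRC1 (-0.79 to -0.07 over replicates) and 0.19 for ZRG17 minus MSC2 (0.14 to 0.29). With no matching of arrays, the SE was 0.135 for ZRT1 minus ZRT2 and 0.106 for ZRC1 minus COT1. It was 0.198 for ZRT3 minus ZRC1 and 0.065 for ZRG17 minus MSC2. Without replicate 1 of the cultures without BSA, ZRT3 minus ZRC1 was -0.19, ZRT1 minus ZRT2 was -0.30, ZRC1 minus COT1 was -0.67, ZRG17 minus MSC2 was 0.24 and IZH1 minus IZH2 was -0.031, values added after the data were seen. In ZRT1 minus ZRT2, ZRC1 minus COT1, ZRT3 minus ZRC1 and ZRG17 minus MSC2 the arrays of the groups did not overlap, at the exact permutation p of 0.1 that is the smallest possible (0.125 adjusted over the 5 pairs), although the gap between groups was only 0.0045 in ZRT3 minus ZRC1 and 0.0091 in ZRG17 minus MSC2. IZH1 minus IZH2 differed by -0.11 (SE 0.09) with overlapping groups (exact permutation p = 0.3, also 0.3 adjusted).

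Inside the group without BSA, replicate 1 was above the mean of replicates 2 and 3 in all 10 genes, against 46.8% of all genes. The excess was at least 0.5 in 4 of the 10, against 1.40% of all genes. ZRT1 was 1.35 higher in replicate 1, the rank 4 value among 5657 genes, and ZRT2 was 1.08 higher. ZAP1 and ZRT3 followed with 0.79 and 0.67, and then COT1 with 0.41 and ZPS1 and IZH1 with 0.33 each. ZRC1 (0.13) and IZH2 (0.10) differed least. This pattern was noticed in the data and is given without a test. Of the 5 further genes of zinc transport and the IZH family, 2 were above 0 by this measure (median -0.09, FET4 at -0.29). Of the 24 further Zap1-induced genes, 13 were above 0 (median 0.03), from -1.14 in the methionine permease gene MUP1 to 0.40 in TEX1, with DPP1 (0.38) and TKL2 (0.36) next to TEX1. Among the genes with the highest excess were also TIS11 (1.47), FET3 (1.22) and ARN1 (1.16) of the iron regulon and the glycine cleavage genes GCV1 (1.85), GCV2 (1.30) and GCV3 (1.16), named after their values were seen. ADE17 (1.44), CSS1 (1.33), SHM2 (1.31), HPF1 (1.27) and SNO1 (1.21) lay in the same range. The iron regulon and glycine genes were not examined as sets here. What set this culture apart was not tested.

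**Figure D3:**
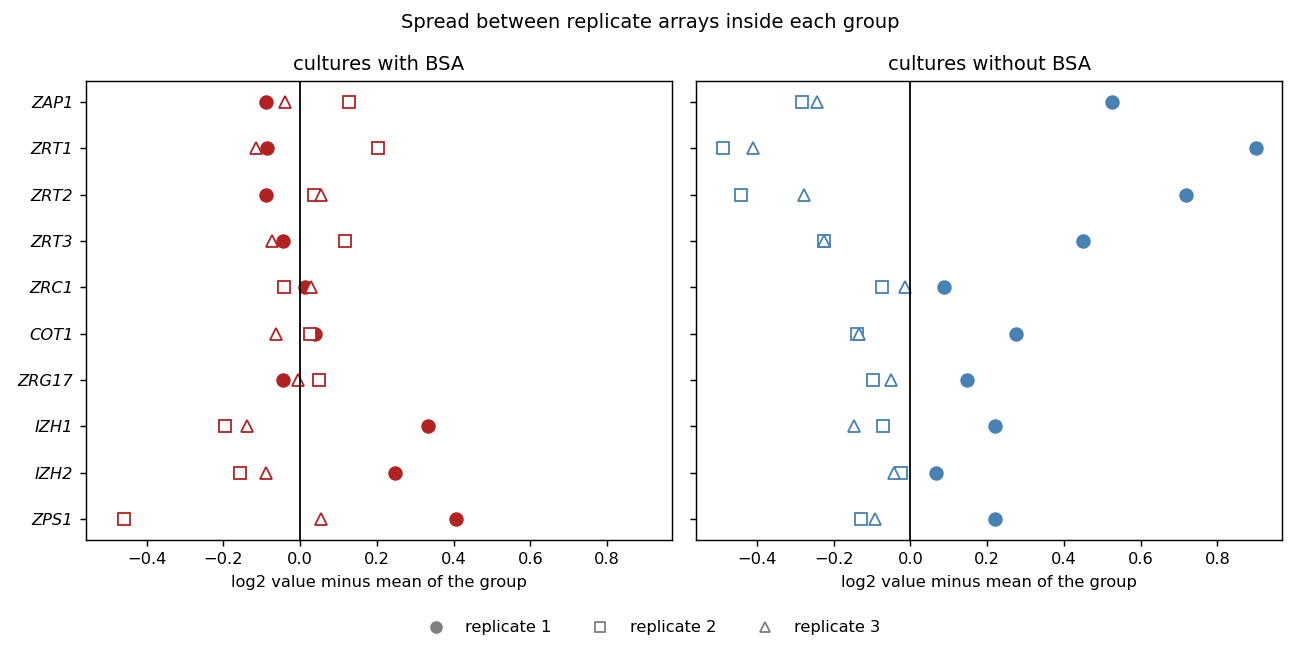
Log2 value of each array minus the mean of its group (x axis) for the 10 zinc genes, with cultures with BSA on the left, cultures without BSA on the right, and replicate 1 filled. Replicate 1 without BSA lies above the other two in every gene and furthest in ZRT1, ZRT2, ZAP1 and ZRT3, and replicate 1 with BSA is highest in IZH1, IZH2 and ZPS1.

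Among the cultures with BSA the spread ran differently. ZRT1, ZAP1 and ZRT3 were highest in replicate 2 with BSA, where ZRT1 lay 0.30 above the mean of the other two, ZAP1 0.19 and ZRT3 0.18. IZH1, IZH2 and ZPS1 were highest in replicate 1, by 0.50, 0.37 and 0.61. In the cultures with BSA the SD of ZRT1 was 0.18, of ZRT2 0.08, of ZRT3 0.10 and of ZAP1 0.11, against 0.78, 0.63, 0.39 and 0.46 without BSA. The larger SDs without BSA rested on replicate 1, since replicates 2 and 3 of that group differed by 0.078 in ZRT1, 0.17 in ZRT2, 0.00051 in ZRT3 and 0.038 in ZAP1.

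Replicate by replicate, the difference with BSA minus without BSA was positive in all 3 numbers for ZRC1 (0.57 to 0.69), COT1 (0.99 to 1.39), IZH1 (0.94 to 1.18), IZH2 (1.04 to 1.35) and ZPS1 (1.89 to 2.41). It was negative in all 3 for ZRG17 (-0.58 to -0.24). For replicate number 1 the difference was -0.82 in ZRT1, -0.25 in ZRT2, -0.22 in ZRT3 and -0.016 in ZAP1. For numbers 2 and 3 the same genes gave 0.86 and 0.46, 1.04 and 0.89, 0.61 and 0.42, and 1.01 and 0.80, in that order of genes. The labels do not say whether cultures of the same number were grown together, so these differences describe the arrays and are not treated as pairs.

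Other genes of zinc transport and of the IZH family were called in both directions, 2 of 5 higher and 3 lower, against 28.3% of all genes called higher and 47.1% lower. One of the 3 lower calls, that of IZH4, was lost under all 4 scalings. FET4, the low-affinity iron transporter gene whose product also carries zinc, had log2 values of 8.28, 7.40 and 7.56 with BSA, against 5.87, 6.17 and 6.17 without BSA. Its signal without BSA was dim, below the first quartile on all 3 arrays of that group. FET4 rose 3.20-fold (limma adjusted p = 0.000239). IZH3, a relative of IZH1 and IZH2, rose 2.84-fold (log2 fold change 1.51 ± 0.09 SE, limma adjusted p = 8.83e-06). IZH1, IZH2 and IZH3 thus all rose, whereas the dim IZH4, below the first quartile on every array, changed by -0.15 ± 0.05 (limma adjusted p = 0.0333), a call lost under those scalings (limma adjusted p = 0.0726 to 0.746), with replicates 2 and 3 without BSA counted as 1 sample, and with either of them or replicate 1 or 2 with BSA left out (limma adjusted p = 0.0579 to 0.119). MSC2, the partner of ZRG17 in the ER, had log2 values of 6.87, 6.98 and 7.04 with BSA, against 7.59, 7.51 and 7.52 without BSA. It fell by 0.57 ± 0.06 (log2, limma adjusted p = 8.02e-05). YKE4, a transporter gene of the ER related to the importers, changed by -0.31 ± 0.05 (limma adjusted p = 0.00104). All 3 genes of zinc transport at the ER were therefore called lower, in a data set where 47.1% of all genes were. Relative to the median of all genes, their log2 fold changes were -0.25 (ZRG17), -0.44 (MSC2) and -0.18 (YKE4). By the same measure IZH4 was at -0.020.

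**Figure D4:**
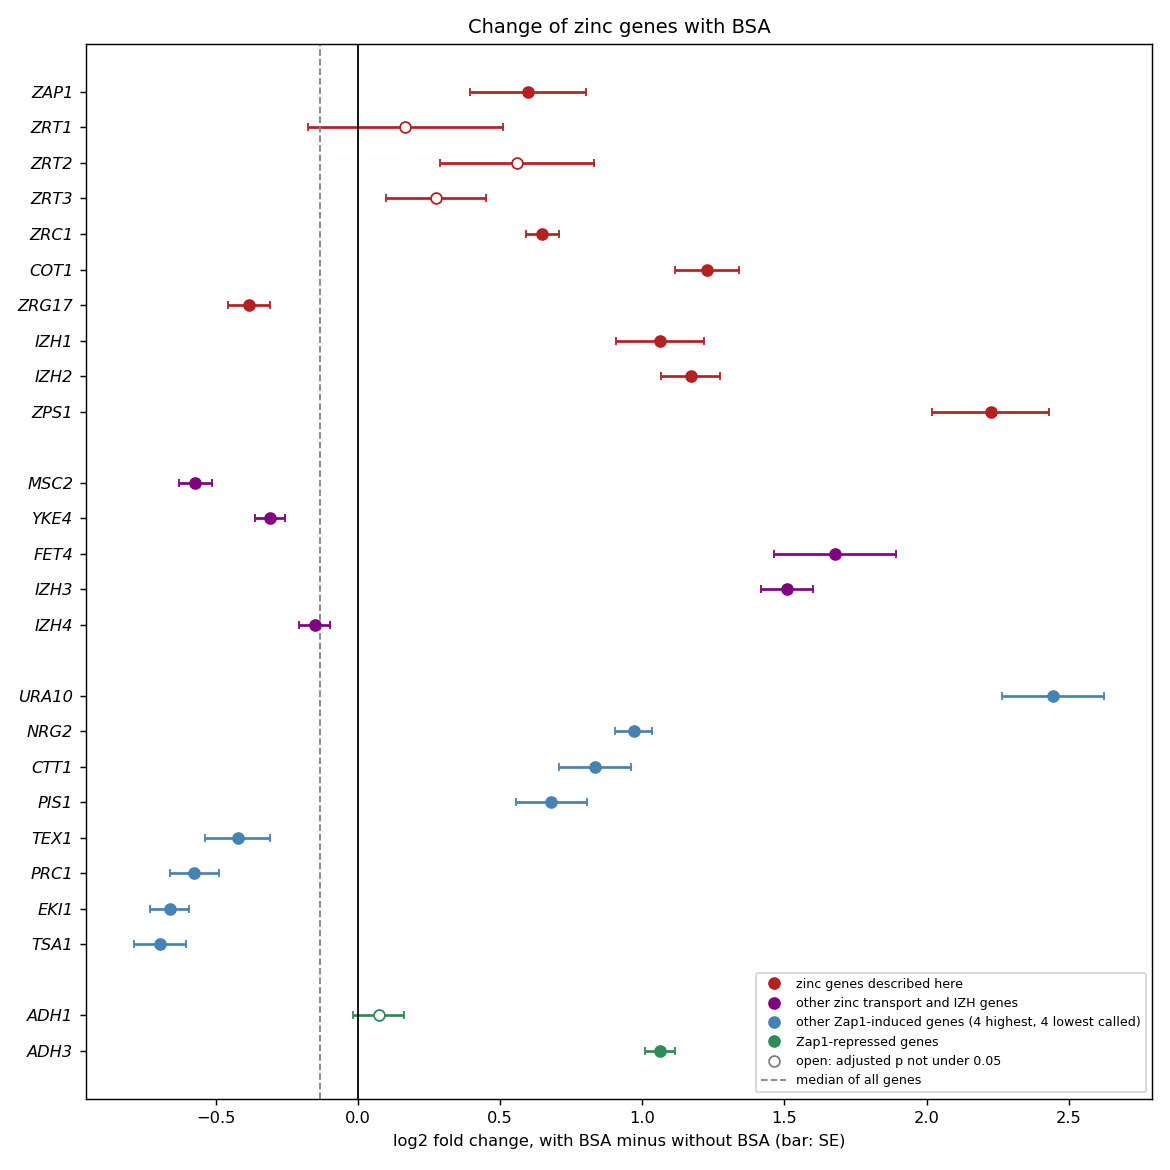
Log2 fold change with BSA minus without BSA (x axis, bar: SE, n = 3 arrays per group) of the 10 zinc genes, 5 further genes of zinc transport and the IZH family, 8 of 24 further Zap1-induced genes and 2 Zap1-repressed genes, filled where called. The dashed line marks the median of all genes at -0.13, and the vacuolar importers, IZH1, IZH2, IZH3, FET4, ZPS1 and URA10 lie to its right while the ER genes ZRG17, MSC2 and YKE4 lie to its left.

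Of 24 further genes known to be induced by Zap1, outside zinc transport, 9 were called higher, 9 lower and 6 were not called. That is 18 of 24 called, against 75.4% of all genes (28.3% higher and 47.1% lower), a share near the background. The median log2 fold change was -0.07, against -0.13 over all genes. Cyclic loess normalization left 9 of them higher and 3 lower, against 1986 higher and 2073 lower among all genes, and centring on the median deviation gave 11 higher and 5 lower, against 2074 and 2056. The called genes with the highest changes were URA10, an orotate phosphoribosyltransferase gene (2.44 ± 0.18, limma adjusted p = 1.85e-05), the repressor gene NRG2 (0.97 ± 0.07), the catalase gene CTT1 (0.83 ± 0.13) and the phosphatidylinositol synthase gene PIS1 (0.68 ± 0.12). URA10 had log2 values of 10.35, 9.60 and 9.66 with BSA, against 7.42, 7.45 and 7.42 without BSA. The lowest were the peroxiredoxin gene TSA1 (-0.70 ± 0.09), the ethanolamine kinase gene EKI1 (-0.66 ± 0.07), PRC1 for carboxypeptidase Y (-0.58 ± 0.09) and the mRNA export gene TEX1 (-0.42 ± 0.12, SE throughout). TEX1 was no longer called after quantile normalization, with arrays centred on the median deviation or after cyclic loess (limma adjusted p = 0.0552 to 0.127). MUP1 was not called (0.67 ± 0.29, limma adjusted p = 0.067), with replicate 1 without BSA far below the rest of its group, and it passed as higher under 6 alternatives (log2 fold change 0.29 to 0.91, limma adjusted p = 0.0219 to 0.039).

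Next to ZRT1 in the gene order of the reference genome lie 3 further Zap1-induced genes, ADH4, MNT2 and VEL1, picked here for their position. Their signal was below the first quartile on all 6 arrays. ADH4 averaged 6.36 ± 0.06 with BSA and 6.58 ± 0.03 without BSA (SD, n = 3), a log2 fold change of -0.22 ± 0.05 (SE, limma adjusted p = 0.00523). MNT2 changed by -0.18 ± 0.06 (limma adjusted p = 0.0269) and VEL1 by -0.011 ± 0.04 (limma adjusted p = 0.826). Relative to the median of all genes, ADH4 was at -0.088, MNT2 at -0.047 and VEL1 at 0.12. Replicate 1 without BSA lay at most 0.17 above the mean of the other two in these 3 genes, against 1.35 in ZRT1. The ADH4 call was lost after quantile normalization, with centring on median deviations and after cyclic loess (limma adjusted p = 0.0667 to 0.393). MNT2 lost its call with any of the 4 scalings tried (limma adjusted p = 0.0721 to 0.743), and with replicate 2 without BSA or any one of the cultures with BSA left out (limma adjusted p = 0.0542 to 0.0627).

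ADH1 and ADH3 encode zinc-containing alcohol dehydrogenases of the cytosol and the mitochondrion, and Zap1 is known to repress both in zinc-poor cells. ADH3 had log2 values of 10.46, 10.59 and 10.54 with BSA, against 9.49, 9.44 and 9.47 without BSA. It rose 2.09-fold (log2 fold change 1.06 ± 0.05 SE, limma adjusted p = 3.86e-06), with no overlap between groups. ADH1 averaged 11.14 ± 0.14 with BSA and 11.06 ± 0.12 without BSA (SD, n = 3), a difference within the spread of the replicates (limma adjusted p = 0.484, 95% confidence interval -0.14 to 0.28) whose sign turned to -0.021 after quantile normalization.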

How the data were processed

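Each array was deposited by the authors as log2 expression of its probe sets. The submitters' processing notes name PLIER and R 2.10.1, without their roles. How background and scaling were handled is not stated in the labels, nor is the base of the logarithm, for which base 2 follows from the range of the deposited numbers. A deposited table pairs each of 5705 probe sets with an ORF. The probe set with the highest mean was kept per gene, and gene names came from the reference gene table of assembly R64 (5646 of 5657 ORFs matched).

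Groups were taken from the labels. The comparison was fitted over all genes with limma 3.58.1 (lmFit and eBayes) in R 4.3.3, with Benjamini-Hochberg adjustment over all genes, and the procedure was checked on data with known answers. The members and the gene lists were chosen with earlier results of these data known, and the lists of further Zap1 targets came from general knowledge and are not complete. Named beyond the 10 members are all 5 further transport and IZH genes, both repressed genes, the 4 highest and 4 lowest called of the 24 further induced genes, and the 3 profiles nearest to the member with the largest change. Outside this rule, ADH4, MNT2 and VEL1 were named for their position beside ZRT1. MUP1, DPP1, TKL2, TIS11, FET3, ARN1, GCV1, GCV2, GCV3, ADE17, CSS1, SHM2, HPF1, SNO1, BAR1 and SAG1 were named after their values were seen. Alternatives covered the replicate block, an intensity trend, array weights, 4 scalings, a filter on the dimmest 25% of genes, the mean of probe sets, replicates 2 and 3 without BSA as 1 sample, a threshold of 0.01 and leaving out each array. The labels' biological replicates are taken at their word. Promoter sequences were not analysed here.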

Additional observations from a re-analysis of the deposited data

How the results depend on the processing

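Each member was recomputed under 17 alternatives. The counts of members called (6 higher, 1 lower) ranged from 5 to 9 higher with each array left out in turn, with 1 lower throughout, and were 9 higher and 1 lower with array weights. ZRC1, COT1, IZH1, IZH2, ZPS1 and ZRG17 kept their direction and their call under all 17. ZAP1 lost its call under 7, including a threshold of 0.01 (log2 fold change 0.46 to 0.86 over all 17). ZRT1, ZRT2 and ZRT3 passed as higher with array weights (0.55, 0.94 and 0.45) and without replicate 1 of the cultures without BSA. ZRT1 turned to -0.059 with replicates 2 and 3 without BSA counted as 1 sample and ranged from -0.079 to 0.616 with each array left out. Deviations of same-numbered arrays correlated at 0.103, 0.0187 and 0.0426. With 3 arrays per group these values cannot settle whether the numbers pair the samples. With the replicate block the count of all genes called was 4266, against 4268, with no member's call changed. The block lowered the SE of every member except ZRG17, most clearly that of ZPS1 from 0.206 to 0.111 and of IZH1 from 0.154 to 0.064. For ZRG17 the SE rose from 0.073 to 0.078. Centring on median deviations moved the share of called genes that were higher to 50.2%, and cyclic loess to 48.9%, against 37.6% as deposited. With 3 arrays per group, the number of arrays limits the precision.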
